A study of Mus musculus with 6 samples.

Results

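Plat, Hprt, Spin1, Orc6, Dazl and Tex19.1 are maternal mRNAs that the growing mouse oocyte stores and that are polyadenylated when the oocyte matures. They were chosen by name, as all probes of the array annotated to 1 of these 6 symbols. The rule used no values, but earlier results of these data were known when the genes were chosen. The 6 genes had 8 of the 33012 probes, 1 each except Spin1, which had 3, and they stand among 13840 genes with a single symbol on the array. Gene expression was measured on 6 arrays with 1 oocyte on each. The mutant group was 3 mature oocytes labelled Ago2 knockout, from [Ago2F/F, Zp3-Cre] females in which Cre is driven by the promoter of the zona pellucida gene Zp3, so that Ago2 is deleted during oocyte growth. The control group was 3 wild-type germinal vesicle (GV) oocytes from adult females, the stage before maturation, which carried no deletion. By the study's methods the ovulated oocytes came from adult animals and were freed of cumulus cells with hyaluronidase. No source used here says whether the oocytes of a group were taken from different animals, and the p-values therefore speak only of the spread between these single oocytes. The labels say that the GV oocytes were taken from oviducts, where the paper's methods speak of ovulated oocytes, and the groups are named here by the stage in the labels. Genotype and stage differ together and cannot be told apart.

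In a growing oocyte many mRNAs are made, given a short poly(A) tail and kept silent. A cytoplasmic polyadenylation element in the 3′ untranslated region is bound by CPEB1, and at maturation kinases act on CPEB1, the tail is lengthened and translation begins. Plat encodes tissue plasminogen activator, a secreted protease and a classic example of such a dormant mRNA. Hprt encodes an enzyme of purine salvage, and Spin1 a histone reader that is abundant in the oocyte and early embryo. Orc6 encodes a subunit of the origin recognition complex, which licenses DNA replication. Dazl encodes a germ cell RNA-binding protein that promotes the translation of other maternal mRNAs, Tex19.1 among them, and Tex19.1 encodes a germ cell protein. The arrays read signal from amplified cDNA and measured neither the tail nor translation. Whether tail length affected the signal was not tested.

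The mutant oocytes gave fewer detected probes. Detection asked for a signal-to-noise ratio (S/N) of 3 or more, which 4620 to 6798 probes reached on a mutant array and 10650 to 11334 on a GV array (two-sided exact permutation p = 0.1, which is as low as 3 against 3 can go). The probe for Ago2 passed this limit in 1 GV oocyte and no mutant, at 6.67, 6.49 and 6.94 in the mutants and 7.88, 6.25 and 6.93 in the GV oocytes on the log2 scale, so it did not check the genotype. The undetected probes had a median unscaled signal of 145 to 231 on the mutant arrays and 70.8 to 83.3 on the GV arrays (two-sided exact permutation p = 0.1), and the part of this in the results below was not tested. Of 11 oocyte markers on the array, 9 were detected in every Ago2-deficient oocyte and 11 in every GV oocyte. Of 13 cumulus and granulosa markers, 0 to 3 were detected in a mutant and 3 to 5 in a GV oocyte.

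All 6 genes were detected in every GV oocyte, by at least 1 probe. In the Ago2-deficient oocytes Spin1, Orc6 and Tex19.1 were detected in all 3, Plat and Dazl in 1 each and Hprt in none. Of all 7668 tested genes that were detected in every GV oocyte, 32.6% were detected in all 3 mutants, 14.7% in 2, 18.9% in 1 and 33.9% in none. Values below are the authors' log2 signals, quantile normalized over the 6 arrays, and differences are Ago2-deficient mature minus wild-type GV. Calls needed a fold change over 2 and, after Benjamini-Hochberg adjustment over 8018 tested probes in limma, a p under 0.05.

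By this limma rule Plat, Hprt and Spin1 were lower in the Ago2-deficient oocytes, none of the 6 was higher, and Orc6, Dazl and Tex19.1 were not called. Of all 7915 tested genes 44.8% were called lower and 17.4% higher, so 3 lower of 6 is close to the share of all tested genes. Of these 7915, 4568 carried a symbol, and the rest were probes without a single symbol, each counted as a gene. All 6 genes had a difference below 0, as did 70.3% of all tested genes, and none reached an unadjusted p under 0.05 in the upward direction. The median difference of the 6 genes was -1.45, beside -1.39 over all tested genes. The groups did not overlap in Plat, Hprt and Spin1 probe A, with every mutant below every GV oocyte, as in 50.3% of all tested genes. All 6 genes passed the filter on low values, which asked for detection in all 3 oocytes of at least 1 group. Spin1 (by probe A), Orc6 and Tex19.1 passed through both groups, and Plat, Hprt and Dazl through the GV group alone. The calls of Plat and Hprt therefore concern genes kept by the group in which they were higher.

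**Figure D1:**
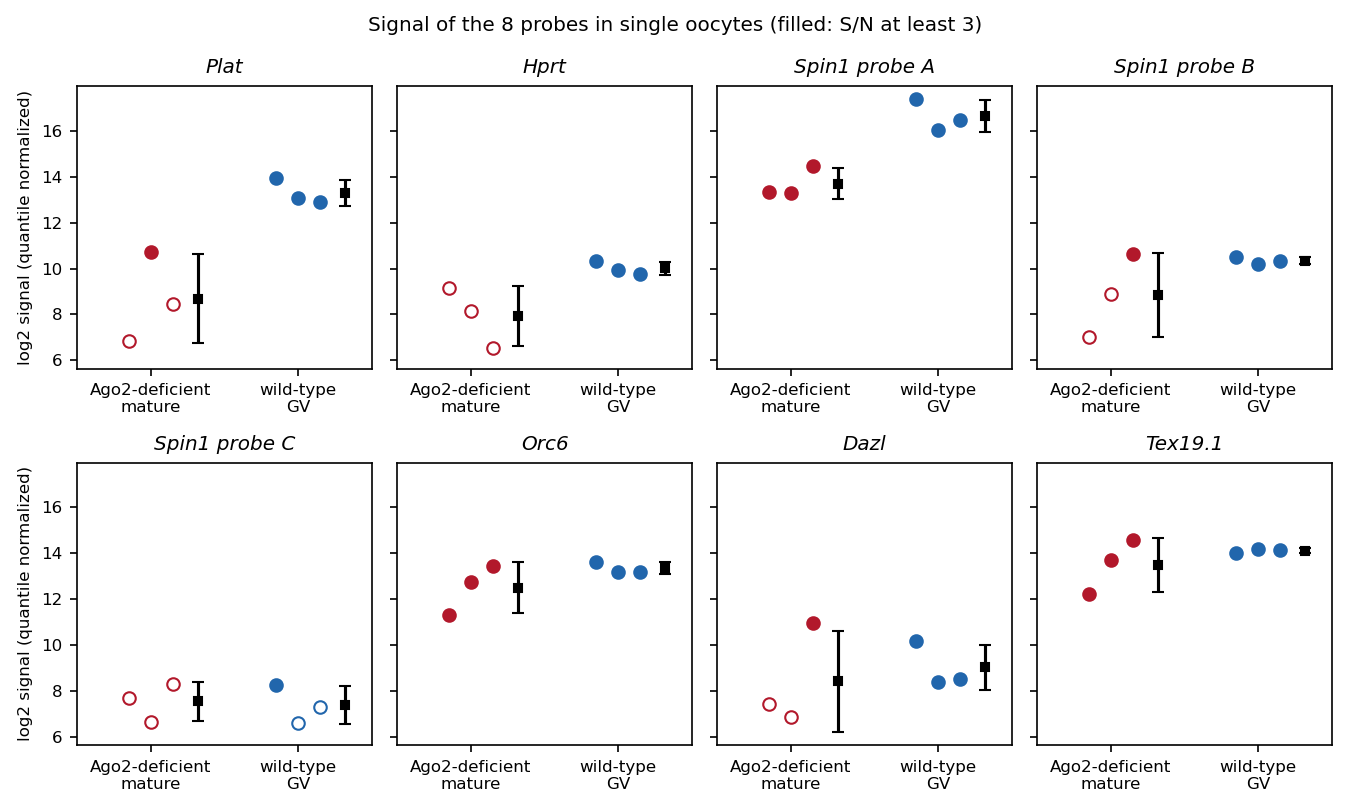
Quantile-normalized log2 signal (vertical axis) of the 8 probes in 3 Ago2-deficient mature oocytes (red) and 3 wild-type GV oocytes (blue), drawn in replicate order; filled circles have an S/N of at least 3, open circles do not, and each square with its bar gives a group's mean and SD. Plat, Hprt and Spin1 probe A lie lower in every mutant than in any GV oocyte, while the mutant values of Orc6, Dazl and Tex19.1 reach into or above the GV values.

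Plat showed the largest difference of the 6. Its log2 signal was 6.86, 10.71 and 8.46 in the mutants, against 13.95, 13.06 and 12.89 at the GV stage. The lowest GV oocyte stood 2.17 above the highest mutant on this scale. In the unscaled signal of the scanner the mutants read 201, 1296 and 294, and the GV oocytes 36837, 18403 and 15286. On the arrays of Ago2-deficient replicates 1 and 3 the median unscaled signal of undetected probes was 231 and 145. The S/N of Plat was 62.8 to 73.2 in the GV oocytes and reached 5.41 in only 1 mutant, Ago2-deficient replicate 2. The means were 8.68 ± 1.94 and 13.30 ± 0.57 (SD, n = 3 oocytes in each group). They differed by -4.62 on the log2 scale (standard error 0.95, limma's adjusted p = 0.00545), a 24.6-fold lower signal. Only 5.79% of all tested genes had a lower difference. Since 2 of the 3 mutant values were under the detection limit, the difference rests in part on signals that were not detected. The difference was -3.71 without Ago2-deficient replicate 1 and -5.64 without Ago2-deficient replicate 2, and called in each of these fits.

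Plat is also made by the cells around the oocyte, and values of their markers are given beside it. The paper's methods name hyaluronidase, used to remove cumulus cells, for ovulated oocytes and do not describe the GV oocytes. The summed linear signal of the 13 cumulus and granulosa markers was 2686 to 3675 in the mutants and 4081 to 6802 in the GV oocytes. The highest mutant sum came from the array where none of the 13 was detected, so these sums include signal under the detection limit and do not measure marker expression. Fshr, Amh, Has2, Tnfaip6 and Hsd3b1 were detected on no array. Inha, an inhibin gene, was detected in all 3 GV oocytes and no mutant. The nuclear receptor gene Nr5a2 was detected in all 3 GV oocytes and 1 mutant. Inhba and Amhr2 were each detected in 2 GV oocytes and 1 mutant, and Star and Kitl in 1 GV oocyte and no mutant. Foxl2 and Cyp11a1 went the other way, each detected in 1 mutant and no GV oocyte. The part of the cells around the oocyte in the difference of Plat was not tested. Fewer cells of another type and less RNA per cell cannot be told apart in such totals.

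Spin1 was lower by the probe with the highest mean, called probe A here. Probe A read 13.31, 13.31 and 14.46 in the mutants and 17.39, 16.03 and 16.45 at the GV stage, and was detected on all 6 arrays with an S/N of 10.1 to 81.5. The mutants were all lower, by a gap of 1.57 between the nearest oocytes. The difference was -2.93 (standard error 0.52, limma's adjusted p = 0.00290), a 7.62-fold lower signal, with 22.1% of tested genes lower still. Leaving out any 1 oocyte moved it between -3.31 and -2.55, and the call held in each case. Probe A was the 1 member probe that was both called and detected in every mutant.

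The other Spin1 probes did not give this call. Probe B, annotated to the same RefSeq transcript as probe A, read 7.02, 8.89 and 10.63 in the mutants and 10.51, 10.18 and 10.34 in the GV oocytes. The 3 GV values were close to each other, and Ago2-deficient replicate 3, the 1 mutant with a detected signal, lay above all of them. The difference was -1.50 (standard error 0.87, adjusted p = 0.172), and -2.39 and called (adjusted p = 0.0163) without that oocyte. Probe C, annotated to another RefSeq transcript of Spin1, was detected in 1 GV oocyte only and was not tested, with values of 7.71, 6.63 and 8.29 in the mutants and 8.26, 6.61 and 7.30 in the GV oocytes.

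Hprt was detected in no Ago2-deficient oocyte. It read 9.14, 8.15 and 6.53 in the mutants, with an S/N of 1.09 to 2.63, and 10.33, 9.93 and 9.75 in the GV oocytes, with an S/N of 15.4 to 29.6. The groups were separated by only 0.62, from Ago2-deficient replicate 1 to GV replicate 3. The difference was -2.07 (standard error 0.67, adjusted p = 0.0327), with a 95% interval of -3.67 to -0.46. It made the signal 4.19-fold lower, an estimate that rests on undetected mutant values. Raising these to the lowest signal among detected probes on each mutant array (6.13, 6.02 and 6.31) left the fold unchanged, as none was below it. That step could not alter the fold here, so it does not show how far the undetected values affect it. This call was the weakest of the 3. It was lost without Ago2-deficient replicate 2 (adjusted p = 0.0606) and without GV replicate 1, 2 or 3 (0.107, 0.0856 and 0.0745), and the difference was -2.67 without Ago2-deficient replicate 1 and -1.36 without Ago2-deficient replicate 3.

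Orc6 was detected on all 6 arrays. Its log2 signal was 11.31, 12.73 and 13.46 in the mutants and 13.63, 13.16 and 13.20 at the GV stage. The highest mutant lay within the GV range, and the other 2 lay under it, replicate 1 the farthest. The difference was -0.83 (standard error 0.58, adjusted p = 0.249), with a 95% interval of -2.23 to 0.56.

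Tex19.1 was likewise detected on all 6 arrays. It read 12.24, 13.71 and 14.55 in the mutants and 14.00, 14.19 and 14.15 in the GV oocytes, where its SD of 0.10 was smaller than that of all but 9.08% of the tested probes. The mutants spread on both sides of the GV values, with an SD of 1.17. The mutants stood in the same order as for Orc6 and the GV oocytes in the reverse order. The difference was -0.61 (standard error 0.60, adjusted p = 0.403, 95% interval -2.05 to 0.83). Without Ago2-deficient replicate 1, the array with the fewest detected probes, it was 0.02 (adjusted p = 0.968), and that of Orc6 was -0.24 (adjusted p = 0.598). Among the 21 pairs that the 7 tested member probes form, Orc6 and Tex19.1 had the most similar pattern, with a root mean square difference of 0.24 between their log2 values after each was centred on its mean over the 6 arrays. The next pair, Spin1 probe B and Orc6, differed by 0.55, and the least similar pair, Plat and Dazl, by 2.75. This distance was not scaled to a gene's own variation, so it runs larger for genes that vary widely.

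As these 2 genes formed the most similar pair, the 250 bases before their RefSeq starts are shown, from build GRCm38.p6. Orc6 lies at chr8:85299382-85299631 and Tex19.1 at chr11:121145893-121146142, both on the plus strand, and capitals mark TATAA, searched on both strands.
Orc6: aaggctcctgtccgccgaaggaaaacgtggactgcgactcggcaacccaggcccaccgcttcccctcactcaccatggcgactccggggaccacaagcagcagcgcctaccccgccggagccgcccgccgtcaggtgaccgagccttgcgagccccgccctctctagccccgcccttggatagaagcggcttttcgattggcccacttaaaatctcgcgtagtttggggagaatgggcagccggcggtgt
Tex19.1: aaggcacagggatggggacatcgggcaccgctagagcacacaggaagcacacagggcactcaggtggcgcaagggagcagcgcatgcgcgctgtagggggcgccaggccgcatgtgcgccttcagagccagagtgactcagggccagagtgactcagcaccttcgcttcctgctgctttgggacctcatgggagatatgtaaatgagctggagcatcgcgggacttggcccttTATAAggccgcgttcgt
The GC content was 65.6% for Orc6 and 61.6% for Tex19.1, and the ratio of observed to expected CpG was 0.91 and 0.64, where the median of all 32851 windows in the table was 52.4% and 0.37. TATAA was found in the Tex19.1 window, as in 22.8% of all windows, and not in that of Orc6. A match in a window is not evidence of use in the oocyte. Hprt and Dazl each had 1 window, with a CpG ratio of 0.82 and 0.71, and Spin1 had 3 starts, with ratios of 0.99, 0.95 and 0.07. Plat had no entry.

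Dazl varied most between oocytes. It read 7.42, 6.88 and 10.94 in the mutants and 10.17, 8.39 and 8.52 at the GV stage. The highest of the 6 values was in Ago2-deficient replicate 3, the 1 mutant in which it was detected, with an S/N of 7.71, and the other 2 mutants had an S/N under 0. Its SD was 2.21 in the mutants and 0.99 in the GV oocytes, above that of 93.5% and 97.4% of the tested probes. The difference was -0.62 (standard error 1.13, adjusted p = 0.652), with a 95% interval of -3.31 to 2.08, the widest of the 7 probes. Without Ago2-deficient replicate 3 it was -1.88 and called (adjusted p = 0.0438), and without Ago2-deficient replicate 2 it was 0.15.

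**Figure D2:**
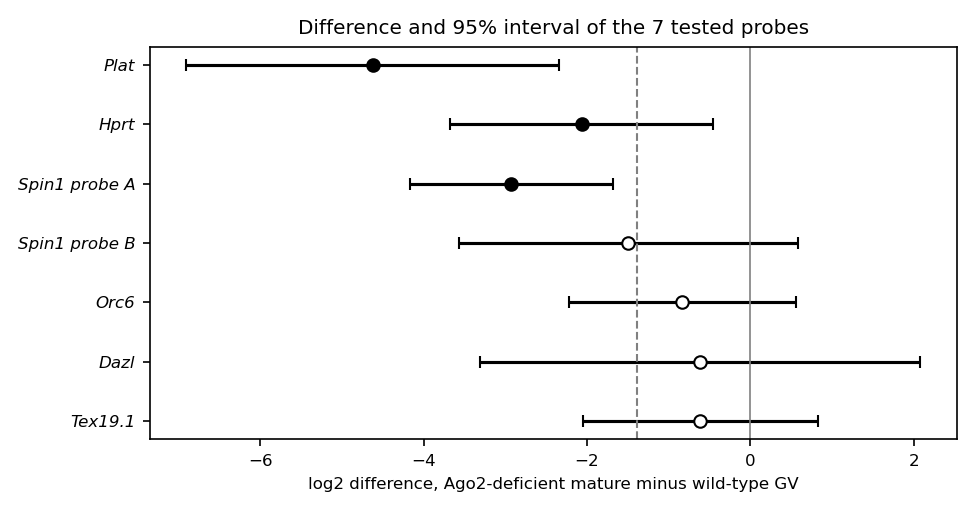
Log2 difference, Ago2-deficient mature minus wild-type GV (horizontal axis), of the 7 tested probes; circles are estimates from 3 oocytes in each group, filled where called, bars are 95% intervals from the limma fit, the solid line is 0 and the dashed line marks -1.39, the median over all tested genes. The intervals of Plat, Hprt and Spin1 probe A lie below 0, those of the other 4 probes cross it, and that of Dazl is the widest.

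The 6 genes varied more between mutant than between GV oocytes, except by Spin1 probe A, whose SD was 0.67 in the mutants and 0.69 in the GV oocytes, and with little difference by Spin1 probe C (0.84 and 0.82). The median SD over all tested probes was also larger in the mutants, at 0.74 against 0.28. No mutant was the lowest in all genes. Ago2-deficient replicate 1 was the lowest mutant in Plat, Orc6, Tex19.1 and Spin1 probe B, Ago2-deficient replicate 3 in Hprt, and Ago2-deficient replicate 2 in Dazl.

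How the arrays were scaled decided the calls of Hprt, Orc6, Tex19.1 and Spin1 probe B and the sign of Dazl and Spin1 probe B. Besides quantile normalization, 4 scalings of the scanner signals were run, namely none, a common median for all arrays (median scaling), centring on the probes detected on every array (common-probe centring) and cyclic loess. Plat and Spin1 probe A were called lower under each, at -2.88 to -6.78 for Plat and -2.84 to -5.78 for Spin1 probe A. Orc6 and Tex19.1 were called lower with no scaling (-2.91 and -2.71), median scaling (-4.02 and -3.82) and common-probe centring (-1.80 and -1.61), but not with quantile normalization or cyclic loess (-0.49 and -0.55). Spin1 probe B was called lower with median scaling (-3.34) and no scaling (-2.24), and was 0.35 with cyclic loess. Hprt was not called with cyclic loess (-0.43, adjusted p = 0.524) or common-probe centring (-1.39, adjusted p = 0.141). Dazl was called under none of the 5, and turned from -0.62 to 0.70 with cyclic loess and 0.45 with common-probe centring.

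Over all tested genes the median moved from -1.39 to -0.36 with cyclic loess, -0.87 with common-probe centring, -1.98 with no scaling and -3.08 with median scaling. Relative to these medians Plat stood at -2.52 to -3.71 and Spin1 probe A at -1.54 to -2.70. Dazl was 0.77 to 1.32 above the median. Orc6 and Tex19.1 were above it with quantile normalization (0.56 and 0.78) and below it with the other 4 scalings. These positions also depend on the filter. With quantile normalization the median was 0.13 with no filter on dim probes and 0.83 among probes detected on all 6 arrays. Orc6 and Tex19.1 stood at -0.96 and -0.74 relative to the first and -1.66 and -1.44 relative to the second. Dazl stood at -0.75 relative to the first and was not tested in the second. The share of all genes called lower moved as well. Of the 6 genes 5 were called with median scaling and 5 with no scaling, beside 78.6% and 60.4% of all genes, 4 with common-probe centring beside 39.7% and 2 with cyclic loess beside 31.8%. With no filter on dim probes 2 were called beside 9.12%. That share is over 32441 genes, which unlike the 6 include genes detected on no array, so the 2 are not alike. The 32441 also count each probe without a single symbol as a gene. With ordinary t-statistics 2 were called beside 37.5%, with a replicate block 3 beside 42.8%, and of the 3 genes detected on all 6 arrays 1 beside 21.7%. Without Ago2-deficient replicate 1, 2 or 3 the count was 3, 2 and 4, beside 44.4%, 44.9% and 47.3% of all genes, and without GV replicate 1, 2 or 3 it was 2 each time, beside 35.8%, 35.4% and 35.7%.

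**Figure D3:**
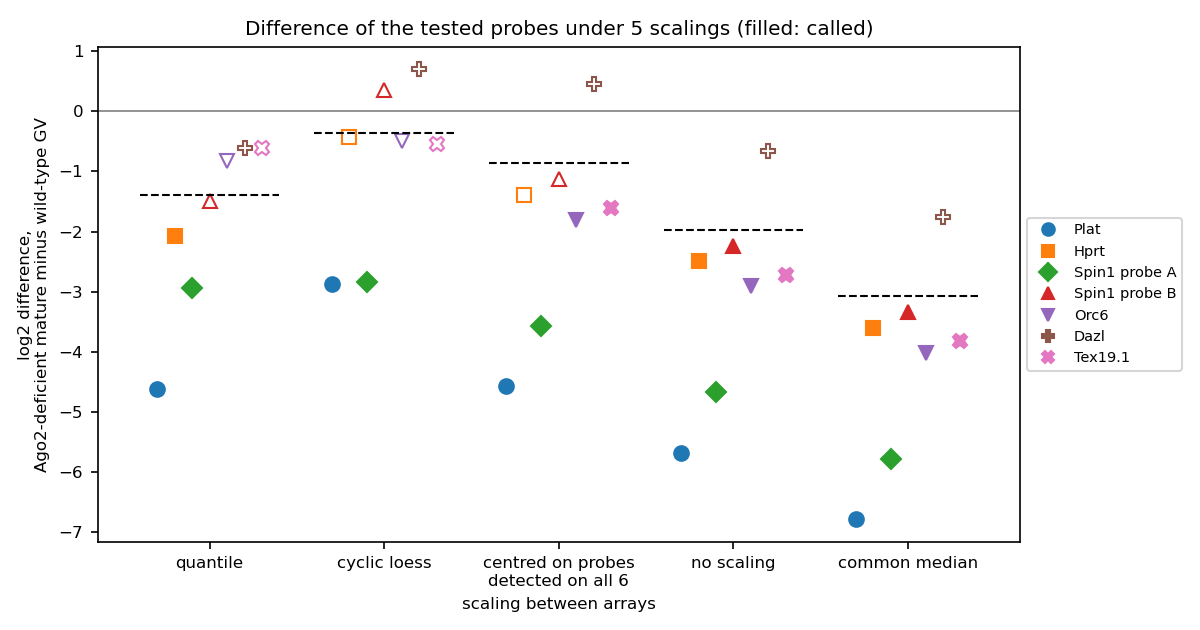
Log2 difference, Ago2-deficient mature minus wild-type GV (vertical axis), of the 7 tested probes under 5 scalings of the arrays (horizontal axis); filled symbols are called, open symbols are not, and dashed lines mark the median over all tested genes for each scaling. Plat and Spin1 probe A are filled and lowest throughout, and Dazl is open throughout and moves above 0 with cyclic loess and with common-probe centring.

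Genes with the most similar pattern were sought among 4671 tested probes with a single symbol, by the root mean square difference of centred log2 values over the 6 arrays. Nearest to Orc6 were Taf9 (0.07), Map4k5 (0.10) and Kcnk13 (0.13), and nearest to Tex19.1 were Kctd13 (0.12), Eme1 (0.15) and Srrm2 (0.16). Nearest to Spin1 probe A were Wdr20 (0.18), Xlr3c (0.20) and Dnajb6 (0.22), and to probe B Mrpl50 (0.18), Rgp1 (0.21) and Srp14 (0.22). Hprt was nearest to Dhrs2 (0.13), Rassf4 (0.25) and Ctc1 (0.33). For Plat the nearest were Cnot2 (0.47), Ruvbl2 (0.47) and Babam1 (0.48), and for Dazl Egf (0.45), Tvp23b (0.48) and Tmem209 (0.48). The distance was not scaled to a gene's own variation. The SD of Plat and Dazl between mutants was above that of 89.1% and 93.5% of the tested probes. Their larger distances therefore do not show that their matches were less close.

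Other dormant mRNAs were called in both directions. Of 13 listed, 8 had a probe with a single symbol and were tested, of which 5 were lower, 2 higher and 1 not called, with a median difference of -2.30. Over all tested genes the shares were 44.8% lower and 17.4% higher. Cdc6, a replication licensing factor like Orc6, was detected in no mutant. It was 43.0-fold lower with quantile normalization, at a log2 difference of -5.43, or -3.19 with cyclic loess. Dcp1a and Cnot7, genes of mRNA decay factors, differed by -4.03 (standard error 0.32) and -3.43 (standard error 0.44), or -2.55 and -1.31 with cyclic loess. They were detected in 2 mutants and 1. A further Dcp1a probe, detected in 1 mutant and 2 GV oocytes, differed by 0.25 and was not tested. Il7, a cytokine gene, was higher by 3.42 (standard error 0.51), but was not called with median scaling (0.37, adjusted p = 0.621). Tpx2, a spindle assembly factor whose mRNA DAZL binds, was not called at 0.27 (adjusted p = 0.503). It was below 0 with median scaling (-2.35, called), no scaling (-1.25) and common-probe centring (-0.14). The remaining 3, named after their values were seen, were Mos at -2.83, Bub1b at -1.77 and the deadenylation adaptor Btg4 at 1.63. Mos was -1.74 without Ago2-deficient replicate 1 and -1.34 with cyclic loess. Mos and Bub1b lost their calls with no filter on dim probes (adjusted p = 0.0770 and 0.0860) and with ordinary t-statistics (adjusted p = 0.0953 and 0.0683). Mos and Bub1b also lost the call without any 1 GV oocyte (adjusted p from 0.0738 to 0.0878), Bub1b lost it with cyclic loess (-0.16), and Btg4 was not called with median scaling (-0.02) or no scaling (1.08).

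Of 31 genes of cytoplasmic polyadenylation and mRNA storage, 21 had a probe with a single symbol and 14 were tested, of which 6 were lower, 3 higher and 5 not called, with a median of -1.69, beside 44.8% lower and 17.4% higher over all tested genes. Folds of genes detected in no mutant are those with quantile normalization, with values raised to the lowest detected signal where below it. With cyclic loess the log2 differences were -3.20 for Pabpn1l and -2.53 for Aurka. Eif4enif1, which binds the cap-binding protein in repressed mRNAs, differed by -5.69 (standard error 1.20), or -4.40 with cyclic loess, -4.24 without Ago2-deficient replicate 1 and -6.63 without Ago2-deficient replicate 3. Pabpn1l, an oocyte poly(A)-binding protein, was 24.2-fold lower and the kinase gene Aurka 16.8-fold lower, and both were detected in no mutant. Cpsf3, the endonuclease of 3′ end formation, differed by -4.51 (-2.91 with cyclic loess, -3.30 without Ago2-deficient replicate 1 and -5.22 without replicate 2). Cpeb1 and Cpsf1 were also detected in no mutant. Cpeb1 was 6.51-fold lower and lost its call with cyclic loess (-0.71), and Cpsf1 was 5.89-fold lower and lost its call with common-probe centring (-1.03). The 3 higher genes were the helicase gene Ddx6 at 2.55, the cap-binding protein gene Eif4e at 1.83 and the poly(A) polymerase gene Papola at 1.46. The tested Ddx6 probe was detected in all 3 mutants and in 1 GV oocyte. A further Ddx6 probe, detected in 1 mutant and 1 GV oocyte, differed by -0.32 and was not tested. With median scaling Ddx6 and Eif4e were not called (1.10 and -1.05) and Papola was called lower (-1.49). Eif4e and Papola were also not called with no scaling (0.05 and -0.38), nor Papola with common-probe centring (0.73). Papola lost its call without GV replicate 1 or 2 (adjusted p = 0.0686 and 0.0650), and Ddx6 without Ago2-deficient replicate 2 or 3 or GV replicate 1 or 2 (0.0538 to 0.109). Lsm14a and Lsm14b, which keep stored mRNAs silent, were not called at -0.48 and -1.15. Both were called lower with median scaling (-3.68 and -4.01), no scaling (-2.57 and -2.90) and common-probe centring (-1.46 and -1.79), and Lsm14b also without Ago2-deficient replicate 2 (-1.59).

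Among 27 relatives and pathway partners of the 6 genes, 18 had a probe with a single symbol and 6 were tested, with 1 lower, 1 higher and 4 not called and a median of -1.60, beside the same shares of all genes. Orc5, another subunit of the origin recognition complex, was detected in no mutant, while Orc6 was detected in all of them. Orc5 was 15.7-fold lower with quantile normalization (log2 difference -3.97, or -1.93 with cyclic loess). Orc2 differed by -2.65 (adjusted p = 0.0984) and was -1.14 and called (adjusted p = 0.0240) without Ago2-deficient replicate 1. It was also called lower with median scaling (-5.20), no scaling (-4.10) and common-probe centring (-2.99). Prps1, which makes the phosphoribosyl donor that the Hprt enzyme uses, was higher by 2.86 (standard error 0.35, adjusted p = 0.000658), but was not called with no scaling (0.78) or median scaling (-0.33). Tex19.2, the close relative of Tex19.1, read 12.67, 10.18 and 12.02 in the mutants and 9.65, 9.34 and 11.08 at the GV stage. It was not called at 1.60 (adjusted p = 0.111). It was called higher with cyclic loess (2.75) and without Ago2-deficient replicate 2 (2.32), and was below 0 with median scaling (-1.17) and no scaling (-0.07).

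**Figure D4:**
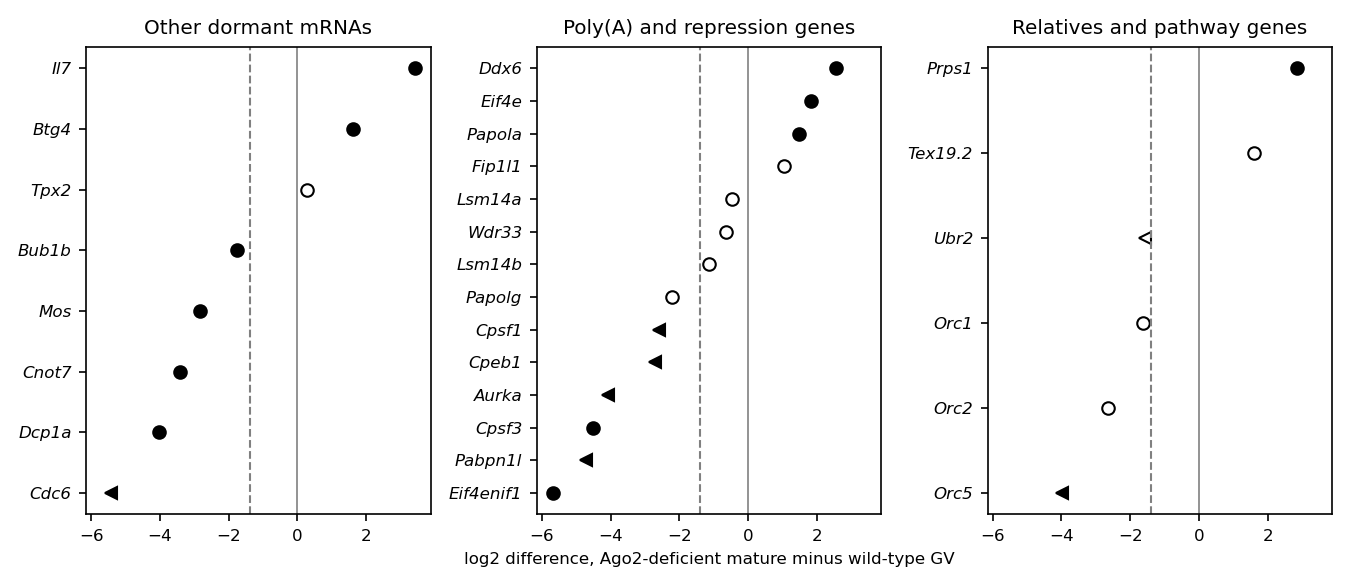
Log2 difference, Ago2-deficient mature minus wild-type GV (horizontal axis), of the tested genes in 3 lists of other dormant mRNAs, of polyadenylation and mRNA storage genes, and of relatives and partners; filled symbols are called, open symbols are not, triangles are genes detected in no mutant, the solid line is 0 and the dashed line marks -1.39, the median over all tested genes. Each list holds filled symbols on both sides of 0, and the right-hand ones Btg4, Eif4e, Papola and Prps1 move below 0 with median scaling.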

How the data were processed

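The authors amplified cDNA from single oocytes, hybridized labelled cRNA to Applied Biosystems mouse genome arrays and read them by chemiluminescence. The software version was not given in the sources. Each deposited file held, per probe, a signal intensity not scaled between arrays, the S/N as a score, a flag code and the log2 values that the authors had quantile normalized over the 6 arrays. Probes were named from the array's annotation, in which 14411 of 33012 carried 1 symbol.

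The filter kept 8018 probes (7915 genes) that reached an S/N of 3 in every oocyte of either group. limma 3.58.1 (R 4.3.3) compared the groups on the log2 scale with lmFit, eBayes and Benjamini-Hochberg adjustment, with no replicate block. It was also run on simulated data with equal spread in both groups. That run cannot show how it performs where the mutants vary more, as here. A gene was counted by its tested probe with the highest mean, and a probe without a single symbol as its own gene. Same-numbered oocytes did not deviate together from their group means (r = -0.05, 0.03 and -0.03). No 2 arrays held identical values. The number of arrays limits the precision.

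The genes and lists were chosen with earlier results of these data known. Genes named were the 6 genes, in each list up to 4 called genes with the largest differences and up to 2 uncalled ones with the highest mean, and the 3 nearest in pattern. Further ones were named after their values were seen. Alternatives covered scaling, filter, detection limit, floor, marked spots, variance model, replicate block, fold limit and each array left out. Python 3.11.15 and matplotlib 3.10.9 made the plots.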

Additional observations from a re-analysis of the deposited data

How the results depend on the processing

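Plat and Spin1 probe A kept their direction and call under every alternative in which they were tested; Plat was not tested among probes detected on all 6 arrays. The number of the 6 genes called, all lower, was 3 and became 5 with arrays scaled to a common median, 5 with no scaling and 1 among probes detected on all 6 arrays, where 3 of them were tested. It was 2 to 4 with each array left out. Hprt lost its call with cyclic loess (-0.43), with common-probe centring (-1.39), with no filter on dim probes (-2.07, adjusted p = 0.0921) and with ordinary t-statistics (-2.07, adjusted p = 0.0903). Calls were gained with arrays scaled to a common median by Spin1 probe B (-3.34), Orc6 (-4.02) and Tex19.1 (-3.82), with no scaling by Spin1 probe B (-2.24), Orc6 (-2.91) and Tex19.1 (-2.71), and with common-probe centring by Orc6 (-1.80) and Tex19.1 (-1.61). Signs turned with cyclic loess for Spin1 probe B (0.35) and Dazl (0.70), with centring for Dazl (0.45), without Ago2-deficient replicate 2 for Dazl (0.15) and without Ago2-deficient replicate 1 for Tex19.1 (0.018). The cause was not tested.

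With each array left out the log2 difference ran from -5.64 to -3.71 for Plat, -2.67 to -1.36 for Hprt, -3.31 to -2.55 and -2.39 to -0.58 for Spin1 probes A and B, -1.31 to -0.24 for Orc6, -1.88 to 0.15 for Dazl and -1.14 to 0.02 for Tex19.1. Over all tested genes, 4921 were called and 1671 among probes detected on all 6 arrays, which leaves fewer genes to test. The lower count of 3543 was 6223 with a common median and 543 among probes detected on all 6, and the higher count of 1378 was 311 with a common median and 609 with no scaling. With each array left out these counts were 4231 to 5665, 3019 to 3812 and 1207 to 1957. Of the other dormant mRNAs 7 were called, and 2 among probes detected on all 6 arrays (5 to 7 with each array left out). Of the polyadenylation and storage genes 9 were called, and 3 on that set (7 to 11). Of the partners 2 were called, 4 with a common median, 4 with no scaling and 1 on that set (2 to 4). The replicate block, where the samples shared only a number, left the same 3 of the 6 genes called and 4675 of all genes. Signals under the detection limit in the mutants limit the values of Plat, Hprt and Dazl.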
